A study of Mus musculus with 10 samples.

Results

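Gene expression was compared between spleen erythroblasts that lack the miR-144/451 microRNA cluster and wild type erythroblasts, with Nrf2 present in both. The comparison rests on 4 of the 10 libraries of the series, chosen by their genotype label: 2 wild type libraries and 2 miR-144/451-null libraries, replicates 1 and 3 of each. All 10 libraries came from C57BL/6 mice, and all were made from erythroblasts, the nucleated precursors of red blood cells, taken from spleens 11 days after 5-FU, so the wild type cells had been through the drug as well. The other libraries were 3 Nrf2-null and 3 double-null (lacking Nrf2 and the cluster), and they served here to estimate the spread between replicates and, in the closing comparisons, to show the effect of cluster loss without Nrf2. Per the labels, the cells were isolated with a Miltenyi Biotec kit and the RNA with Trizol. The sources used here do not give the mice's age, the number of mice behind a library or the deleted interval, and nothing says that replicates came from separate mice, so p-values measure only the spread between these libraries.

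MicroRNAs are short RNAs that guide the silencing complex to messages, mostly through pairing of the seed near their 5′ end with the 3′ UTR, and thereby lower those messages or their translation. The miR-144/451 cluster is transcribed in erythroid cells under Gata1, and miR-451a is matured by Ago2 in place of Dicer. 5-FU kills dividing marrow cells, and the mouse spleen then becomes a site of rapid red cell production, in which erythroblasts pass through a last series of divisions before they condense and expel the nucleus.

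The mature sequences show which 7 bases (positions 2 to 8, in capitals) define the seed of each of the main products of the cluster. They are RefSeq sequences placed on GRCm38.p6, with miR-144-3p at chr11:78073047-78073066 and miR-451a at chr11:78073186-78073207, both on the plus strand.
miR-144-3p: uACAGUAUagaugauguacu
miR-451a: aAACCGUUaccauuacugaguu
The seeds differ, so a message can carry a site for either or both: ATACTGT in the DNA strand of the message for miR-144-3p and AACGGTT for miR-451a. The cluster itself was examined first. Mir144 had 12 and 17 counts in the wild type libraries and 0 and 0 in the miR-144/451-null libraries, at least 5.35-fold lower against a floor of 3 counts per library. Mir451a had 0 counts in all 10 libraries, the wild type ones included, so its counts check nothing. The counts of Mir144 went with the labels in each library.

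Total counts of the 4 libraries ran from 13087827 to 14777399, of which the globins made up 7.39% to 8.46%. Wild type replicates differed from each other by a median of 0.275 on the log2 scale and miR-144/451-null replicates by 0.346, against 0.352 to 0.437 between the genotypes. Sex coincided with genotype. Xist, the RNA of the inactive X chromosome, had 22993 and 21421 counts in wild type and 56 and 6 in miR-144/451-null, and the Y-linked genes together had 2 and 0 counts in wild type and 5154 and 3966 in miR-144/451-null. Both wild type libraries thus came from females and both miR-144/451-null libraries from males, and within these 4 libraries genotype and sex cannot be told apart.

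Loss of the cluster was accompanied by 653 changed genes among 14110 tested (4.63%), at an adjusted p under 0.05 in edgeR's quasi-likelihood test. Of these, 338 were higher (2.4%) and 315 lower (2.23%) in miR-144/451-null, 284 of them at least 2-fold, 114 higher and 170 lower. None of the 653 overlapped between the groups, as was true of 6634 (47%) of all tested genes, and the median log2 fold change over all tested genes was 0.02. Without scaling factors that median moved to 0.15 and the calls to 497 higher and 247 lower. The count was smaller when any of the 4 libraries was left out. Dropping replicate 1 of wild type gave 200 and dropping replicate 3 gave 40. Dropping replicate 1 of miR-144/451-null gave 81, and dropping its replicate 3 gave 331. Dropping Nrf2-null replicate 1 gave 390, while no called gene changed sign in any of the 10 fits that left out a library. With a term for sex in the model 1 gene passed, the ribosomal protein pseudogene Rps19-ps6. Only the double-null libraries, of both sexes, can inform that term. Among them replicate 3 alone was female, so the term rests on that 1 library against the male ones. In that fit all 653 genes kept their sign, the median log2 fold change went from 0.89 to 0.83 for the higher genes and from -1.03 to -1.05 for the lower ones, and the median standard error went from 0.19 to 0.29.

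**Figure D1:**
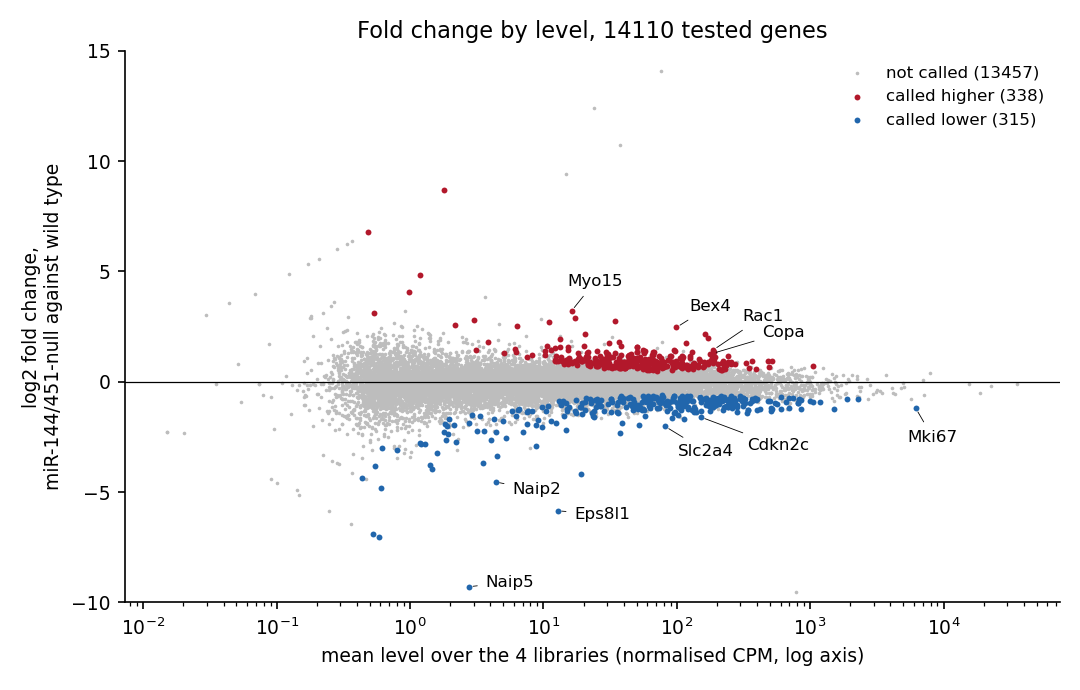
Log2 fold change of miR-144/451-null against wild type (vertical axis) by mean level over the 4 libraries in normalised CPM (horizontal log axis), 1 point per tested gene. The 338 genes called higher (red) and 315 called lower (blue) occur at high and low levels, and Mki67 is among the most abundant of those called lower.

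A smaller set did not depend on any of the 4 libraries. It held 30 genes, 15 higher and 15 lower, that passed in the full fit and in each of the 4 fits that left out a wild type or miR-144/451-null library. In those fits the lone remaining library of a genotype was assumed to vary like the other genotypes. All 30 also passed with each of the Nrf2-null and double-null libraries left out, and 29 passed in a fit of the 4 libraries alone. Leaving aside predicted genes, pseudogenes and genes under a mean of 5 CPM, 13 higher and 12 lower genes remained.

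**Figure D2:**
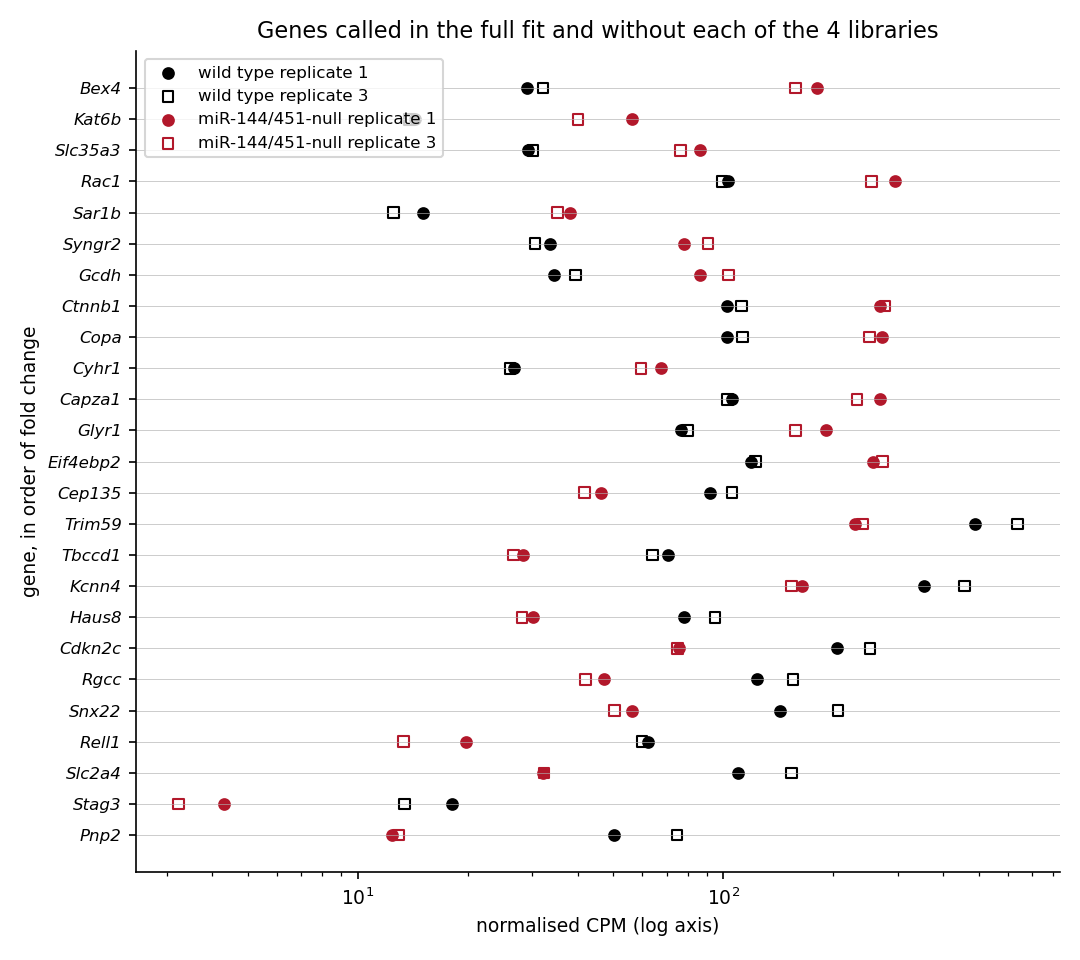
Normalised CPM (horizontal log axis) of the 25 named genes that passed in the full fit and without each of the 4 libraries, 1 row per gene in order of fold change. Black points are the wild type libraries and red points the miR-144/451-null libraries, circles replicate 1 and squares replicate 3; from Bex4 down to Eif4ebp2 the red points lie to the right of the black ones, and from Cep135 down to Pnp2 to the left.

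Of the higher genes, Bex4, a small adaptor of the brain-expressed X-linked family that has been tied to microtubules, had the largest log2 fold change of the 13. It lies on the X chromosome and stood at 29.1 and 32.1 CPM in wild type and 179.8 and 157 CPM in miR-144/451-null, in normalised CPM (each gene's share of its library's counts, after TMM scaling). The lowest miR-144/451-null library was well above the highest wild type library (log2 fold change 2.46 ± 0.23 SE, adjusted p = 0.00151). Its relative Bex3 stood at 28.6 and 19.5 CPM in wild type and 25.8 and 29.2 CPM in miR-144/451-null and did not pass (0.19 ± 0.21, adjusted p = 0.716). Rac1, a small GTPase that controls actin and is needed for enucleation, stood at 103 and 99.1 CPM in wild type and 296 and 254 CPM in miR-144/451-null (1.44 ± 0.15, adjusted p = 0.00151). The wild type libraries were within a few CPM of each other. Its close relative Rac2, the form particular to blood cells, overlapped between the groups, at 109 and 125 CPM in wild type and 86.3 and 122 CPM in miR-144/451-null (-0.17 ± 0.18, adjusted p = 0.709).

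Several of the genes in this set belong to membrane traffic and glycosylation. Copa, the alpha subunit of the COPI coat that returns vesicles from the Golgi to the endoplasmic reticulum, stood at 103 and 113 CPM in wild type and 272 and 251 CPM in miR-144/451-null (1.28 ± 0.13, adjusted p = 0.00151). Sar1b, the GTPase that begins COPII coats on the outward route, stood at 15.1 and 12.5 CPM in wild type and 38.1 and 35.2 CPM in miR-144/451-null (1.41 ± 0.17, adjusted p = 0.00308). Both coats of the early secretory route thus had a member at more than double the wild type level in each miR-144/451-null library. Slc35a3, a Golgi carrier of UDP-N-acetylglucosamine, stood at 29.1 and 30.1 CPM in wild type and 86.3 and 76.3 CPM in miR-144/451-null (1.46 ± 0.15, adjusted p = 0.00151). Syngr2, a vesicle membrane protein of the synaptogyrin family, stood at 33.5 and 30.5 CPM in wild type and 78.2 and 90.7 CPM in miR-144/451-null (1.40 ± 0.14, adjusted p = 0.00151). Its relative Syngr1 was higher as well, at 15.1 and 17.4 CPM in wild type and 35.5 and 37.6 CPM in miR-144/451-null (1.17 ± 0.23, adjusted p = 0.0184), though that call did not hold without each library.

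Others act in adhesion, chromatin and translation. Ctnnb1, which encodes beta-catenin, the adhesion protein and Wnt effector, stood at 103 and 112 CPM in wild type and 268 and 277 CPM in miR-144/451-null (1.34 ± 0.15, adjusted p = 0.00187). Kat6b, a histone acetyltransferase, stood at 14.3 and 13.9 CPM in wild type and 56.4 and 40.02 CPM in miR-144/451-null (1.77 ± 0.20, adjusted p = 0.00203). In Kat6b the miR-144/451-null libraries differed more from each other than the wild type ones did, yet lay far above them. Eif4ebp2, an inhibitor of cap-dependent translation that mTORC1 switches off, stood at 119 and 123 CPM in wild type and 257 and 273 CPM in miR-144/451-null (1.14 ± 0.14, adjusted p = 0.00363). Of its relatives, Eif4ebp1 stood at 25.4 and 21.8 CPM in wild type and 24.5 and 28.98 CPM in miR-144/451-null and did not pass (adjusted p = 0.877). The remaining higher genes were Capza1, an actin capping subunit (1.27 ± 0.15), Gcdh, a mitochondrial enzyme of lysine breakdown (1.36 ± 0.17), Glyr1, a nucleosome-binding protein (1.15 ± 0.15), and Cyhr1 (1.27 ± 0.15).

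Among the lower genes of the set, several act in division. Cdkn2c encodes p18INK4c, an inhibitor of the G1 kinases that is known to rise as erythroblasts leave the cycle. It stood at 205 and 252 CPM in wild type and 75.4 and 74.9 CPM in miR-144/451-null (-1.60 ± 0.21, adjusted p = 0.00411). Its miR-144/451-null values nearly coincided and lay far below both wild type values. Haus8, a subunit of the augmin complex that seeds spindle microtubules, stood at 78.1 and 94.8 CPM in wild type and 30.2 and 28.1 CPM in miR-144/451-null (-1.57 ± 0.17, adjusted p = 0.00185). Cep135, a centriole protein, stood at 92.02 and 106 CPM in wild type and 46.3 and 41.7 CPM in miR-144/451-null (-1.17 ± 0.15, adjusted p = 0.00377). Rgcc, a regulator of the cell cycle that binds Cdk1, stood at 124 and 155 CPM in wild type and 47.2 and 42.01 CPM in miR-144/451-null (-1.64 ± 0.17, adjusted p = 0.00151). Stag3, a cohesin subunit otherwise known from meiosis, was low in all 4 libraries and lower in miR-144/451-null, at 18.2 and 13.4 CPM in wild type and 4.31 and 3.23 CPM in miR-144/451-null (-2.07 ± 0.27, adjusted p = 0.00391).

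The other lower genes of the set included carriers and channels. Slc2a4 encodes Glut4, the insulin-regulated glucose carrier of muscle and fat. It stood at 109.6 and 154 CPM in wild type and 32.2 and 32.3 CPM in miR-144/451-null (-2.03 ± 0.24, adjusted p = 0.00305), with the miR-144/451-null libraries almost equal. Kcnn4, the Gardos channel through which red cells lose potassium and water, stood at 353 and 456 CPM in wild type and 164 and 153 CPM in miR-144/451-null (-1.35 ± 0.17, adjusted p = 0.00377). Pnp2, a purine nucleoside phosphorylase, stood at 50.2 and 74.7 CPM in wild type and 12.4 and 12.9 CPM in miR-144/451-null (-2.30 ± 0.24, adjusted p = 0.00151), and Pnp, a near-identical copy, at 3.89 and 4.97 CPM in wild type and 3.43 and 1.76 CPM in miR-144/451-null (-0.77 ± 0.40, adjusted p = 0.348). The counting could have split reads between Pnp and Pnp2, so each value is uncertain. Snx22, a sorting nexin (-1.71 ± 0.21), Rell1 (-1.89 ± 0.19), Trim59 (-1.26 ± 0.17) and Tbccd1 (-1.29 ± 0.18) were the rest. In Trim59 the wild type replicates themselves were spread, at 487 and 639 CPM, against 229 and 239.9 CPM in miR-144/451-null.

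The messages were then sorted by whether their longest annotated 3′ UTR, taken from GENCODE M21, holds a 7-base seed match; such a UTR existed for 11692 tested genes. A match is a stretch of letters, not a shown binding site. A miR-451a match stood in 224 of them (1.92%), and in 32 of the 322 called higher (9.94%) but 1 of the 286 called lower (0.35%), Kifc5b. Of the 224 genes, 32 (14.3%) were called higher, against 322 of the 11692 genes with a UTR. Over all tested genes, with or without a UTR, 2.4% were called higher. The median log2 fold change of the 224 was 0.24, with 146 above 0. A miR-144-3p match stood in 1556 genes (13.3%), in 89 of those called higher (27.6%) and in 35 of those called lower (12.2%), with a median of 0.07. UTRs of the called genes differed in length: the median was 1520 bases among the higher, 1100 among the lower and 1160 among all, and 2070 among genes with a miR-451a match. Longer UTRs hold any given 7 bases more often, and the part of length in these shares was not tested.

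The windows show the match (capitals) in its place in the UTR, for the genes with a miR-451a match that passed without each of the 4 libraries and for Ywhaz and Cab39, both reported targets of this microRNA, read from GRCm38 on the strand of the message.
Rac1: gggtaaagctttttAACGGTTa
Bex4: tggtgtttccacttAACGGTTt
Syngr2: ttggagatggaataAACGGTTt
Eif4ebp2: aataaatcctcaccAACGGTTg
Ywhaz: ctggtaagggcagaAACGGTTc
Cab39: tctgctgttaagtgAACGGTTt
In Rac1 the match starts at base 781 of a UTR of 3341 bases and is followed by an A, the longer 8-base form; in Bex4 it starts at base 98 of 227. In Syngr2 and Eif4ebp2 it lies close to the UTR's end, at base 794 of 808 and base 5266 of 5306. So 4 of the 13 higher genes of the set with a UTR held a miR-451a match (30.8%). Another 3 of them held miR-144-3p matches: Copa 1, Capza1 2 and Slc35a3 3. Their first matches read as follows.
Copa: gcatggttaaccccATACTGTt
Capza1: tctagcctcatggaATACTGTt
Slc35a3: aaccataaaatagaATACTGTt
No gene of the set held both. Among the 15 lower genes of the set, 14 had a UTR, none held a miR-451a match and 2 held a miR-144-3p match, Cep135 and Trim59.

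**Figure D3:**
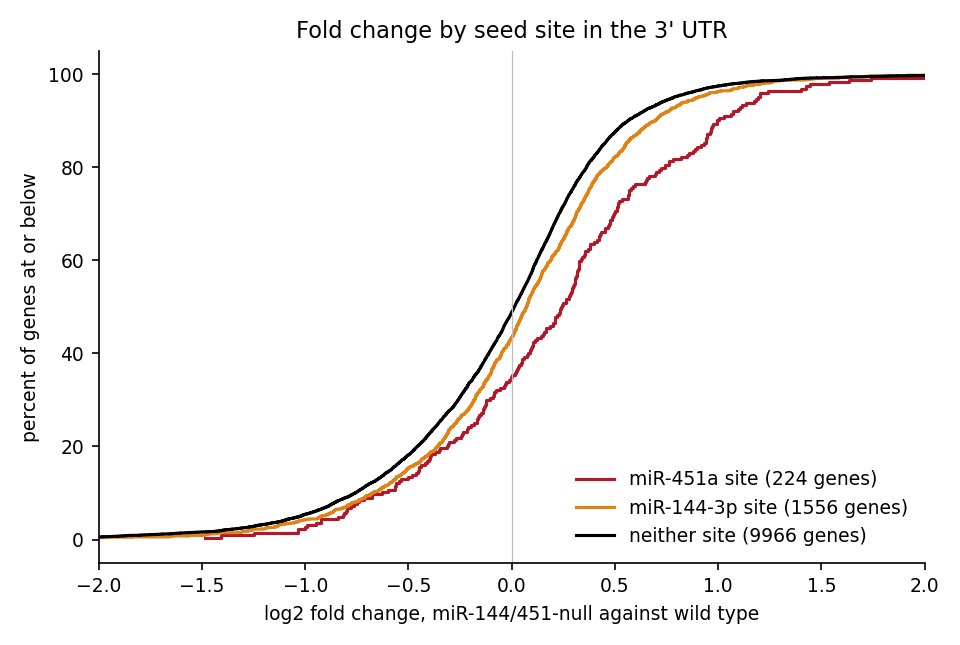
Percent of genes at or below each log2 fold change of miR-144/451-null against wild type, shown from -2 to 2, for genes whose 3′ UTR holds a miR-451a match (red, 224 genes), a miR-144-3p match (orange, 1556 genes) or neither (black, 9966 genes). The red curve lies to the right of the black one, with a median of 0.24, and the orange curve lies close to it, with a median of 0.07; 54 genes are in both coloured curves.

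Further genes with a miR-451a match were called higher in the full fit, though not without each of the 4 libraries. Nek9, a mitotic kinase, stood at 56.3 and 59.9 CPM in wild type and 123 and 109 CPM in miR-144/451-null (0.99 ± 0.14, adjusted p = 0.00483), and Synrg, a clathrin adaptor partner, at 56.7 and 53.9 CPM in wild type and 135 and 116 CPM in miR-144/451-null (1.18 ± 0.17, adjusted p = 0.00525). Lypla1, which removes palmitate from proteins and whose UTR also holds a miR-144-3p match, stood at 10.4 and 9.28 CPM in wild type and 28.4 and 32.6 CPM in miR-144/451-null (1.63 ± 0.24, adjusted p = 0.00657). Each of these had its miR-144/451-null libraries close to or above double the wild type level. Hp1bp3, a linker histone-like protein (0.93 ± 0.16), Gabarapl1, an autophagosome protein (1.17 ± 0.24), and Cab39, the scaffold of the kinase Lkb1 (0.70 ± 0.15), rose too. With a term for sex the median of the genes with a miR-451a match was 0.14 against 0.01 over all genes with a UTR, and none passed. Without a library of the 4 in turn, the median of the genes with a miR-451a match was 0.14 to 0.31, against -0.05 to 0.07 over all genes with a UTR.

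The broadest pattern among the lower genes, which made up 2.23% of all tested genes, was in mitosis. Of 33 tested mitotic kinases, kinesins and their partners, 19 fell and none rose, with a median log2 fold change of -0.77. Of 36 kinetochore and centromere genes 13 fell (median -0.57), of 23 condensin and cohesin genes 10 fell (median -0.61), and of 21 cytokinesis genes 6 fell (median -0.34), again with no rise. Of 27 spindle checkpoint and anaphase-promoting complex genes 4 fell, with a median of -0.08 that turned to 0.04 without scaling factors. Mki67, the proliferation marker that coats mitotic chromosomes, stood at 7906 and 9390 CPM in wild type and 4234 and 3275 CPM in miR-144/451-null (-1.20 ± 0.24, adjusted p = 0.0196). These calls depended on single libraries: without wild type replicate 3, none of the members of these 5 lists passed, and without each of the other 3 libraries in turn the mitotic kinase list kept 2 to 9 calls and the kinetochore list 1 to 4.

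**Figure D4:**
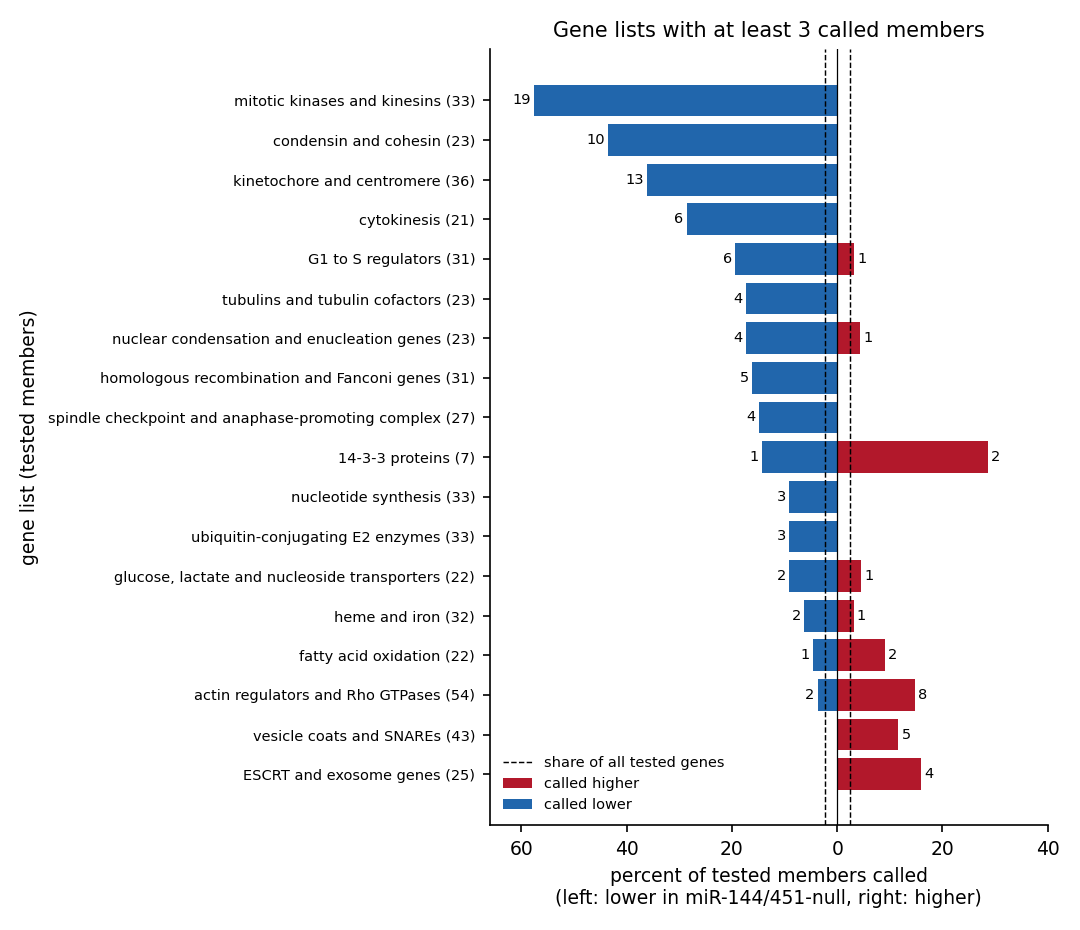
Percent of the tested members of each gene list called lower (blue, to the left) or higher (red, to the right) in miR-144/451-null, for the 18 pathway lists with at least 3 calls, with the number of calls beside each bar. Dashed lines mark the share of all tested genes called, 2.4% higher and 2.23% lower; the lists of mitosis extend to the left and those of actin, vesicle and ESCRT genes to the right.

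The chromosomal passenger and spindle genes gave the following values. Kif18a, a kinesin that aligns chromosomes, stood at 128 and 155 CPM in wild type and 68.8 and 57.4 CPM in miR-144/451-null (-1.17 ± 0.17, adjusted p = 0.00547). Kif23, a subunit of centralspindlin at the midbody, stood at 302 and 319 CPM in wild type and 149 and 135 CPM in miR-144/451-null (-1.13 ± 0.17, adjusted p = 0.00657). Both wild type libraries were about double the miR-144/451-null ones. Nusap1, a microtubule bundler, was more variable in wild type, at 389 and 579 CPM in wild type and 187 and 214 CPM in miR-144/451-null (-1.27 ± 0.20, adjusted p = 0.00758). Kif20a (-0.85 ± 0.15), Kif4 (-0.98 ± 0.18), Ckap2 (-0.95 ± 0.16), Aurkb, the passenger kinase (-0.91 ± 0.18), and Birc5, its partner survivin (-0.95 ± 0.20), fell too. Some tubulins fell with them, where 2.23% of all tested genes were called lower. Among 23 tubulin genes and cofactors 4 were lower, Tuba1c (-1.41 ± 0.20), Tubb4b (-0.96 ± 0.16), Tuba1b (-0.90 ± 0.18) and Tubb5 (-0.88 ± 0.17). Tubulin genes of a class are alike in sequence, so their counts may have been shared.

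At the kinetochore, Cenpf, a large protein of the outer plate, stood at 629.7 and 828 CPM in wild type and 272 and 311 CPM in miR-144/451-null (-1.32 ± 0.20, adjusted p = 0.00672). Cenpl, of the inner complex, stood at 121 and 128 CPM in wild type and 56.8 and 50.9 CPM in miR-144/451-null (-1.21 ± 0.17, adjusted p = 0.00547), and Mis12, which links inner and outer layers, at 64.4 and 66.1 CPM in wild type and 30.1 and 30.2 CPM in miR-144/451-null (-1.12 ± 0.17, adjusted p = 0.00698). Cenpl and Mis12 varied little within each genotype. Spdl1, which brings dynein to kinetochores (-1.10 ± 0.19), and Knl1, the platform of the checkpoint (-0.85 ± 0.21), fell as well. Of the cohesin group, Esco2, which acetylates cohesin in S phase, stood at 242 and 264 CPM in wild type and 112 and 90.3 CPM in miR-144/451-null (-1.32 ± 0.19, adjusted p = 0.00525), and the shugoshins Sgo2a (-1.09 ± 0.21) and Sgo1 (-1.03 ± 0.20) fell. The condensin core Smc2 and Smc4 fell by 0.86 and 0.84. Anln, the anillin of the cleavage furrow, stood at 276 and 349 CPM in wild type and 136 and 123 CPM in miR-144/451-null (-1.27 ± 0.18, adjusted p = 0.00525), and Ect2, the exchange factor that activates RhoA there, at 227 and 299.8 CPM in wild type and 128 and 129 CPM in miR-144/451-null (-1.03 ± 0.19, adjusted p = 0.0145). Of the ubiquitin route, Ube2s (-1.27 ± 0.22) and Ube2c (-1.24 ± 0.26), the E2 enzymes of the anaphase-promoting complex, its activator Fzr1 (-0.98 ± 0.23) and its inhibitor Fbxo5 (-1.24 ± 0.29) fell together.

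Of 31 tested regulators of S phase entry, 6 fell and 1 rose, with a median of -0.55. Over all tested genes 2.23% were called lower and 2.4% higher. E2f6, a repressive member of the E2F factors, stood at 37.4 and 36.2 CPM in wild type and 17.9 and 16.6 CPM in miR-144/451-null (-1.10 ± 0.15, adjusted p = 0.00525). E2f1, the activator, stood at 75.5 and 58.4 CPM in wild type and 33.9 and 28.4 CPM in miR-144/451-null (-1.11 ± 0.24, adjusted p = 0.0255), and E2f8, an atypical repressor, at 354 and 308 CPM in wild type and 171 and 131 CPM in miR-144/451-null (-1.13 ± 0.25, adjusted p = 0.0292). E2f2, the member most abundant in these cells per gene length (417 and 491 FPKM in wild type and 385 and 284 FPKM in miR-144/451-null), did not pass (-0.56 ± 0.24, adjusted p = 0.244). The gene that rose was Rbl2, the pocket protein p130 of resting cells, at 31.6 and 30.1 CPM in wild type and 72.5 and 56.5 CPM in miR-144/451-null (1.06 ± 0.19, adjusted p = 0.0119), while Rb1 (0.03) and Rbl1 (-0.04) lay close to 0. Mxd3, a Max partner expressed in dividing cells, stood at 68.7 and 96.4 CPM in wild type and 19.6 and 22.2 CPM in miR-144/451-null (-1.98 ± 0.26, adjusted p = 0.00459).

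DNA replication genes gave 1 call among 46, with a median of -0.25 that turned to 0.13 with a term for sex. Over all tested genes 2.23% were called lower in miR-144/451-null against wild type. In male double-null against Nrf2-null libraries 33 of the 46 were called lower and 1 higher (median -0.79), where 10.6% of all genes were called lower. The 1 call in miR-144/451-null against wild type was Orc1, the cycling subunit of the origin complex, which was lower. Orc1 stood at 70.3 and 67.3 CPM in wild type and 35.97 and 25.1 CPM in miR-144/451-null (-1.17 ± 0.22, adjusted p = 0.0138). Of 33 nucleotide synthesis genes 3 fell, with the list's median at 0.10: Rrm2, the regulated subunit of ribonucleotide reductase, at 1119 and 1292 CPM in wild type and 522 and 509 CPM in miR-144/451-null (-1.23 ± 0.27, adjusted p = 0.0276), Dck, which phosphorylates deoxycytidine (-1.09 ± 0.18), and Tk1, the thymidine kinase of S phase (-0.70 ± 0.16). Of 31 homologous recombination and Fanconi genes 5 fell (median -0.23): Rad51c (-1.31 ± 0.21), Fancl (-0.95 ± 0.23), Ube2t (-0.90 ± 0.18), Brca2 (-0.81 ± 0.17) and Brca1 (-0.80 ± 0.19). Odc1, which starts polyamine synthesis, was among the most abundant lower genes, at 1469 and 1624 CPM in wild type and 768 and 863 CPM in miR-144/451-null (-0.92 ± 0.21, adjusted p = 0.0329).

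In edgeR the vesicle coat and ESCRT lists held higher genes and no lower ones, where 2.4% of all tested genes were called higher. Of 43 vesicle coat and SNARE genes 5 rose and none fell (median 0.26). Beside Copa and Sar1b they were Copb1, another COPI subunit (0.83 ± 0.14), Copg2 (0.80 ± 0.18) and Arf1, the GTPase that recruits COPI, which stood at 164 and 189 CPM in wild type and 344 and 321 CPM in miR-144/451-null (0.92 ± 0.14, adjusted p = 0.00760). Without each of the 4 libraries in turn, 2 to 4 genes of the list passed. Of 25 ESCRT and exosome genes 4 rose and none fell (median 0.04): Vps4b, the ATPase that takes ESCRT filaments apart, at 49.2 and 47.3 CPM in wild type and 96.3 and 83.9 CPM in miR-144/451-null (0.90 ± 0.14, adjusted p = 0.00718), Stam2 (0.96 ± 0.21), Chmp7 (0.83 ± 0.19) and Vps36 (0.77 ± 0.19). The ESCRT calls fell to 2 without miR-144/451-null replicate 3 and to 0 without any other of the 4 libraries.

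Subunits of vesicle tethers, named by their symbol family, were among the higher genes too. Vps53 and Vps54, subunits of the GARP tether that receives vesicles at the Golgi, stood higher: Vps53 at 12.3 and 12.1 CPM in wild type and 31.1 and 29.4 CPM in miR-144/451-null (1.31 ± 0.17, adjusted p = 0.00377) and Vps54 at 55.1 and 61.2 CPM in wild type and 125 and 104 CPM in miR-144/451-null (0.98 ± 0.17, adjusted p = 0.00999). In both genes the lower miR-144/451-null library lay well above the higher wild type one. Vps39, of the HOPS tether at lysosomes, rose by 0.89, and Rab7, the GTPase of late endosomes that recruits it, by 0.67. Over all genes whose symbol begins with Vps, 6 of 32 rose (18.75%) and none fell, where 2.4% of all tested genes were called higher. Of the Sec genes 3 of 26 rose: Sec61a1, the translocation channel (0.72 ± 0.13), Sec23ip (0.85 ± 0.16) and Sec16a (0.62 ± 0.13). Of the genes that begin with Rab 4 of 56 rose (7.14%), among them Rab14 (0.62 ± 0.15). They included both subunits of the Rab3 and Rab18 regulator, Rab3gap1 (0.70 ± 0.14) and Rab3gap2 (0.56 ± 0.14), which are not Rab GTPases. Of 41 tested Rab GTPases 2 rose and none fell, with 20 above 0 and a median of -0.01.

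Genes of the proton pump and of peroxisomes were among the higher ones as well, which made up 2.4% of all tested genes. Atp6v1a, the catalytic subunit of the proton pump, stood at 33.1 and 31.8 CPM in wild type and 81.6 and 80.03 CPM in miR-144/451-null (1.32 ± 0.17, adjusted p = 0.00377), the only call among 16 subunits of the vacuolar ATPase (median 0.20). Peroxins bring enzymes into peroxisomes, and 3 of 16 rose with none lower. Pex5, the receptor for the common targeting signal, stood at 18.5 and 14.3 CPM in wild type and 47.3 and 37.5 CPM in miR-144/451-null (1.37 ± 0.19, adjusted p = 0.00459). Pex13, its docking partner, stood at 3.52 and 3.502 CPM in wild type and 8.61 and 9.33 CPM in miR-144/451-null (1.35 ± 0.27, adjusted p = 0.0201), and Pex19, which carries membrane proteins, at 40.1 and 49.6 CPM in wild type and 80.3 and 69.5 CPM in miR-144/451-null (0.74 ± 0.15, adjusted p = 0.0195). In each of the 3 peroxins the groups were clearly separate.

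Actin regulators gave 8 higher and 2 lower genes among 54, although the list's median was 0.02. The shares over all tested genes were 2.4% higher and 2.23% lower. Both alpha subunits of the capping protein CapZ rose, Capza1 from 105 and 103 CPM in wild type to 268 and 232 CPM in miR-144/451-null and Capza2 from 65.6 and 63.1 to 131 and 112 (0.92 ± 0.15, adjusted p = 0.00886). The shared beta subunit Capzb stood at 83.2 and 73.3 CPM in wild type and 92.6 and 110.3 CPM in miR-144/451-null and did not pass (0.37 ± 0.15, adjusted p = 0.194). Subunits of the Arp2/3 complex, which branches actin, rose by smaller steps, Arpc2 by 0.72, Actr2 by 0.55 and Actr3 by 0.51. Nckap1, a part of the WAVE complex through which Rac1 acts on Arp2/3, stood at 29.99 and 27.1 CPM in wild type and 68.2 and 50.4 CPM in miR-144/451-null (1.05 ± 0.18, adjusted p = 0.00921), and Cap1, which recycles actin, rose by 0.78. Of the lower genes, Diaph3, a formin of cytokinesis, fell by 1.12. Eps8l1, an adaptor of actin signalling, stood at 17.7 and 32.6 CPM in wild type and 0.584 and 0.293 CPM in miR-144/451-null (-5.85 ± 0.80, adjusted p = 0.00642). Eps8l1 had nearly vanished in both miR-144/451-null libraries. Without Nrf2 it did not follow the cluster, with 143, 153 and 41 counts in Nrf2-null and 72, 89 and 181 in double-null. The log2 fold change of double-null against Nrf2-null was 0.05 ± 0.49. Without each of the 4 libraries in turn 2 to 4 genes of the list were called higher and 0 to 3 lower.

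Members of several small families, picked after their values were seen, went in opposite directions. The 14-3-3 proteins bind phosphorylated partners. Ywhaz (14-3-3 zeta) stood at 134 and 126 CPM in wild type and 260.3 and 239.6 CPM in miR-144/451-null (0.94 ± 0.14, adjusted p = 0.00701) and Ywhae (epsilon) at 138 and 129 CPM in wild type and 239 and 239.9 CPM in miR-144/451-null (0.84 ± 0.14, adjusted p = 0.00994). Ywhah (eta) moved the other way, at 359 and 309.6 CPM in wild type and 164 and 156 CPM in miR-144/451-null (-1.07 ± 0.18, adjusted p = 0.00968). Per gene length the order of the members changed with genotype: Ywhah led in wild type with 108 and 78.2 FPKM, ahead of Ywhae with 59.8 and 47.1 FPKM and Ywhaz with 36.3 and 28.6 FPKM, whereas in miR-144/451-null Ywhae led with 97.6 and 110.3 FPKM, followed by Ywhaz with 66.2 and 68.7 FPKM and Ywhah with 46.3 and 49.5 FPKM. Of the Ras genes, Nras stood at 53.8 and 50.9 CPM in wild type and 83.9 and 74.1 CPM in miR-144/451-null (0.59 ± 0.14, adjusted p = 0.0414) and Hras at 53.5 and 41.8 CPM in wild type and 22.7 and 23.6 CPM in miR-144/451-null (-1.04 ± 0.24, adjusted p = 0.0322). Nras was thus higher and Hras lower, with no overlap between the groups in either.

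Growth signalling gave scattered calls, where 2.4% of all tested genes were called higher and 2.23% lower. Of 39 AMPK, Lkb1 and mTORC1 genes 2 rose, Cab39 and Tsc2, the GTPase activator that restrains mTORC1, which stood at 62.8 and 53.3 CPM in wild type and 131 and 99.9 CPM in miR-144/451-null (0.99 ± 0.20, adjusted p = 0.0196). Of 24 PI3K and Akt genes 2 rose, Akt2 (0.65 ± 0.13) and Inpp5d, the phosphatase Ship1 of blood cells, at 67.4 and 78.5 CPM in wild type and 158 and 138 CPM in miR-144/451-null (1.02 ± 0.24, adjusted p = 0.0370). Gnai3, an inhibitory G protein subunit, stood at 59.3 and 49.6 CPM in wild type and 152 and 130.3 CPM in miR-144/451-null (1.37 ± 0.22, adjusted p = 0.00795). Of the subunits of phosphatase PP2A, the scaffold Ppp2r1a (1.04 ± 0.14) and the catalytic Ppp2cb (0.88 ± 0.16) rose. Of 51 cytokine receptors and their suppressors 2 rose. Il1r1, the interleukin-1 receptor, stood at 27.6 and 22.8 CPM in wild type and 70.9 and 81.2 CPM in miR-144/451-null (1.59 ± 0.23, adjusted p = 0.00525). Csf2rb2, the interleukin-3 specific beta receptor of mice, stood at 4.31 and 3.83 CPM in wild type and 30.7 and 30.3 CPM in miR-144/451-null (2.90 ± 0.37, adjusted p = 0.00377), and its near-identical copy Csf2rb at 14.9 and 15.6 CPM in wild type and 19.2 and 31.4 CPM in miR-144/451-null (0.74 ± 0.30, adjusted p = 0.224), so the split of reads between Csf2rb2 and Csf2rb is uncertain.

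Chromatin and RNA genes were mostly not called, with exceptions, where 2.4% of all tested genes were called higher and 2.23% lower. The Kdm5 demethylases of histone H3 that are not sex-linked both rose: Kdm5b stood at 26.5 and 24.03 CPM in wild type and 84.1 and 65.5 CPM in miR-144/451-null (1.57 ± 0.22, adjusted p = 0.00529) and Kdm5a at 122 and 120.3 CPM in wild type and 281 and 204 CPM in miR-144/451-null (1.00 ± 0.19, adjusted p = 0.0157). Kdm5c, the X-linked member, stood at 382 and 478 CPM in wild type and 366 and 281 CPM in miR-144/451-null and did not pass (-0.41 ± 0.18, adjusted p = 0.264). Kdm6a, an X-linked demethylase that escapes X inactivation, fell, at 277 and 363 CPM in wild type and 179 and 121 CPM in miR-144/451-null (-1.09 ± 0.26, adjusted p = 0.0391). For Kdm6a the Nrf2-null libraries, all male, stood at 201, 190.4 and 220 CPM, and the double-null ones at 215, 185 and 309 CPM, the last of them female. Tnrc6a, a silencing partner of Argonaute, was the only call among 18 microRNA processing genes (0.59 ± 0.13). Fubp3, a single-strand binding protein (1.81 ± 0.24), Top2b (0.79 ± 0.16) and Cnot1, the scaffold of the deadenylase (0.64 ± 0.15), rose, and the nuclear envelope genes Lbr (-1.21 ± 0.20) and Lmnb1 (-1.18 ± 0.21) and the chromatin protein Hmgb2 (-0.73 ± 0.18) fell.

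Translation and energy genes gave few calls, and their shares above 0 stand against 52.0% of all tested genes. Their calls stand against 2.4% of all tested genes called higher and 2.23% called lower. Eif5a2, the second form of the hypusinated elongation factor, stood at 43.4 and 65.2 CPM in wild type and 194 and 168 CPM in miR-144/451-null (1.74 ± 0.27, adjusted p = 0.00781), while the common form Eif5a stood at 511 and 553 CPM in wild type and 605 and 634 CPM in miR-144/451-null (0.22 ± 0.17, adjusted p = 0.559). Of 40 initiation and elongation factors 1 rose, Eif4g2 (0.70 ± 0.17), though 32 of the 40 lay above 0 (median 0.20). Of 76 mitochondrial ribosomal proteins 2 rose and 63 lay above 0 (median 0.21). All 10 mitochondrial genome transcripts tested lay above 0 (median 0.57), with 1 call, mt-Nd4, at 386 and 374 CPM in wild type and 581 and 627 CPM in miR-144/451-null (0.67 ± 0.16, adjusted p = 0.0401). Transcripts of that genome took 1.13% and 1.13% of counts in wild type and 1.58% and 1.8% in miR-144/451-null. Sdhc, a subunit of succinate dehydrogenase, rose (0.77 ± 0.19), and the inner membrane fusion protein Opa1 rose by 0.57. Fatty acid oxidation had Acadvl (0.83 ± 0.17) and Eci2 (0.85 ± 0.22) higher and Acsl1, which activates fatty acids and has a role in red cell lipids, lower (-0.78 ± 0.19).

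Erythroid genes served as the check of the cell type and as a readout. Their calls stand against 2.23% of all tested genes called lower in edgeR. All 15 erythroblast defining genes were detected, their summed level was 43450 and 62410.9 CPM in wild type and 39251.9 and 33455 CPM in miR-144/451-null, and all 15 log2 fold changes lay below 0 (median -0.56), 3 of them past the threshold. Hemgn, a Gata1 target of the erythroid nucleus, stood at 1754 and 2493 CPM in wild type and 896 and 926 CPM in miR-144/451-null (-1.22 ± 0.22, adjusted p = 0.0119). Klf1, the master factor of globin and membrane genes, stood at 429.9 and 578 CPM in wild type and 269.9 and 296 CPM in miR-144/451-null (-0.83 ± 0.20, adjusted p = 0.0385). In both genes wild type replicate 3 was the highest library. Of the Klf genes 3 of 13 fell, Klf1, Klf3, a repressor that Klf1 drives, at 588 and 858 CPM in wild type and 279 and 335 CPM in miR-144/451-null (-1.23 ± 0.25, adjusted p = 0.0189), and Klf5 (-1.72 ± 0.42). None of the 8 genes for globins and their chaperone passed in edgeR (1 at an unadjusted p under 0.05), and none of the 19 late erythroblast genes did (6 at an unadjusted p under 0.05). DESeq2, which called 998 of the 11637 genes it gave an adjusted p (8.58%), called 0 and 3 of them.

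Heme and iron genes gave 3 calls among 32 (median -0.10, and 0.03 without scaling factors), where 4.63% of all tested genes were called. Ncoa4, the receptor that delivers ferritin to lysosomes, stood at 453 and 734 CPM in wild type and 253 and 258 CPM in miR-144/451-null (-1.21 ± 0.20, adjusted p = 0.00921). Cpox, an enzyme of heme synthesis, stood at 2260 and 2523 CPM in wild type and 1486 and 1327 CPM in miR-144/451-null (-0.77 ± 0.17, adjusted p = 0.0289). Tfr2, the iron-sensing transferrin receptor, rose, at 86.8 and 67.3 CPM in wild type and 136 and 125 CPM in miR-144/451-null (0.76 ± 0.17, adjusted p = 0.0282). Of other membrane genes, Dmtn, the dematin of the skeleton, stood at 1156 and 1617 CPM in wild type and 798 and 657 CPM in miR-144/451-null (-0.93 ± 0.20, adjusted p = 0.0250), and the lactate carrier Slc16a1 at 647 and 848 CPM in wild type and 350 and 404 CPM in miR-144/451-null (-0.99 ± 0.18, adjusted p = 0.0123). Cdan1, the gene of congenital dyserythropoietic anaemia type I, was even within each genotype, at 86.3 and 83.2 CPM in wild type and 51.3 and 51.2 CPM in miR-144/451-null (-0.73 ± 0.14, adjusted p = 0.0158).

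No marker of the other spleen cells examined passed in edgeR, and the lists differed in how their members lay. The 14 B cell markers summed to 1865.2 and 2297.1 CPM in wild type and 978.6 and 1371.4 CPM in miR-144/451-null, and all 14 lay below 0 (median -1.03, with 9 at an unadjusted p under 0.05 and 6 called by DESeq2). The 15 T cell markers all lay below 0 (median -0.70), with summed levels of 160.4 and 103.9 against 56.9 and 102.6 CPM that nearly overlapped. Neutrophil markers, all 15 above 0 (median 0.63), summed to 516.3 and 571.3 CPM in wild type and to 458 and 1156.3 CPM in miR-144/451-null, so miR-144/451-null replicate 3 alone was high. Macrophage markers (16 tested, 8 above 0) summed to 413.5 and 392.3 against 322.6 and 504.9 CPM. No marker of these 4 cell types was at 0 counts in all 4 libraries. In bulk RNA, fewer cells of a type and less RNA per cell cannot be told apart, and the part of other cells in the erythroblast results was not tested.

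The largest fold changes outside these groups were few. Myo15, an unconventional myosin known from hair cells, stood at 3.89 and 2.36 CPM in wild type and 29.3 and 29.6 CPM in miR-144/451-null (3.21 ± 0.46, adjusted p = 0.00718). It was 1.89 ± 0.35 with a term for sex, and without Nrf2 it did not follow the cluster, at 57.7, 53.98 and 75.9 CPM in Nrf2-null and 95.6, 90.96 and 37.3 CPM in double-null. Trove2, the Ro60 protein that binds small RNAs and whose UTR holds a miR-144-3p match, stood at 4.31 and 10.5 CPM in wild type and 37.6 and 29.1 CPM in miR-144/451-null (2.18 ± 0.37, adjusted p = 0.0101). Artn, a ligand of the GDNF family, stood at 10.8 and 20.4 CPM in wild type and 2.34 and 1.76 CPM in miR-144/451-null (-2.93 ± 0.41, adjusted p = 0.00525), its wild type replicates far apart. Slfn8, of the Schlafen family, fell, at 11.2 and 12.3 CPM in wild type and 2.34 and 2.52 CPM in miR-144/451-null (-2.27 ± 0.47, adjusted p = 0.0232). Of 19 interferon-inducible GTPases 2 rose, where 2.4% of all tested genes were called higher, while the list's median was -0.31. Igtp stood at 60.1 and 79.6 CPM in wild type and 319.9 and 229.6 CPM in miR-144/451-null (1.98 ± 0.33, adjusted p = 0.0110) and its genomic neighbour Irgm2 at 45.6 and 73.3 CPM in wild type and 288 and 245 CPM in miR-144/451-null (2.17 ± 0.36, adjusted p = 0.0109). Irgm1, of the same family, overlapped between the groups, at 128 and 159 CPM in wild type and 171 and 63.5 CPM in miR-144/451-null (-0.29 ± 0.40, adjusted p = 0.778).

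Several lists gave no call in edgeR at all. Among 38 core spliceosome proteins (median 0.14) 1 gene reached an unadjusted p under 0.05 and DESeq2 called 1. Among 27 nuclear pore genes (median 0.01) 3 reached it and DESeq2 called 0, and among 27 unfolded protein response genes (median 0.15) 4 and 0. For 22 aminoacyl-tRNA synthetases (median 0.23) these counts were 3 and 1, for 25 Atf4 and heme-regulated stress genes (median -0.18) 5 and 1, and for 26 Bcl2 family and caspase genes (median 0.05) 6 and 2. A p that misses the threshold with 2 libraries a side does not show that these genes were alike in the genotypes. Among large symbol families the calls were rare too, 7 of 212 Slc carriers (3.3%) and 4 of 292 Zfp zinc finger genes (1.37%). The share over all tested genes was 4.63%, made up of 2.4% higher and 2.23% lower. Kinesins were at the other end, with 8 of 30 Kif genes lower and 1, Kif3b, higher, and of 34 Cep centrosome genes 5 fell, Cep135, Cep76, Cep192, Cep83 and Cep89, with none higher.

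By chromosome the calls were spread. They made up 6.73% of 1129 tested genes on chromosome 11, which holds the cluster, and 5.69% of 422 on the X chromosome. The share over all tested genes was 4.63%. Among the autosomes it ran from 2.62% of 572 genes on chromosome 13 to 7.02% of 484 on chromosome 14. Of the 20 tested genes nearest to Mir144, 10 on each side in the RefSeq order, 2 rose and none fell (median 0.20). They were Eral1, a mitochondrial ribosome assembly GTPase, at 13.9 and 12.7 CPM in wild type and 25.3 and 25.9 CPM in miR-144/451-null (0.94 ± 0.20, adjusted p = 0.0226), and Sdf2, at 13.4 and 13.4 CPM in wild type and 22.6 and 22.2 CPM in miR-144/451-null (0.74 ± 0.18, adjusted p = 0.0382). Both lie on the same side of Mir144.

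Since sex and genotype coincide here, the effect of losing the cluster was set beside the same loss in Nrf2-null mice, using the male libraries alone (2 double-null, 3 Nrf2-null), a comparison chosen after the data were seen whose fold changes share no library with the present ones. The spread behind the 653 calls was estimated over all 10 libraries, these 5 included. Of the 653 called genes 646 were tested there, and 638 had the same sign, as had 78.1% of all 13397 genes tested in both. Of 333 higher genes 300 were also called higher, and of 313 lower genes 288 were also called lower, with none called in the opposite direction, in a comparison that called 2630 (19.6%) of its 13404 genes, 9.05% higher and 10.6% lower. The median log2 fold change there was 1.00 for the higher and -1.31 for the lower genes. Of the 30 genes that passed without each library, 25 were called in the same direction. Rac1 gave 1.66 ± 0.13, Bex4 3.34 ± 0.23, Cdkn2c -2.04 ± 0.22 and Slc2a4 -2.14 ± 0.22, all past the threshold. All 13 kinetochore, 19 mitotic kinase and 10 condensin and cohesin calls were among the lower genes there, and all 5 vesicle coat calls among the higher. Igtp (-0.41 ± 0.30) and Irgm2 (-0.72 ± 0.32) went the other way and did not pass. Of genes with a miR-451a match 22.33% were called higher there, against 10.01% of all genes with a UTR.

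**Figure D5:**
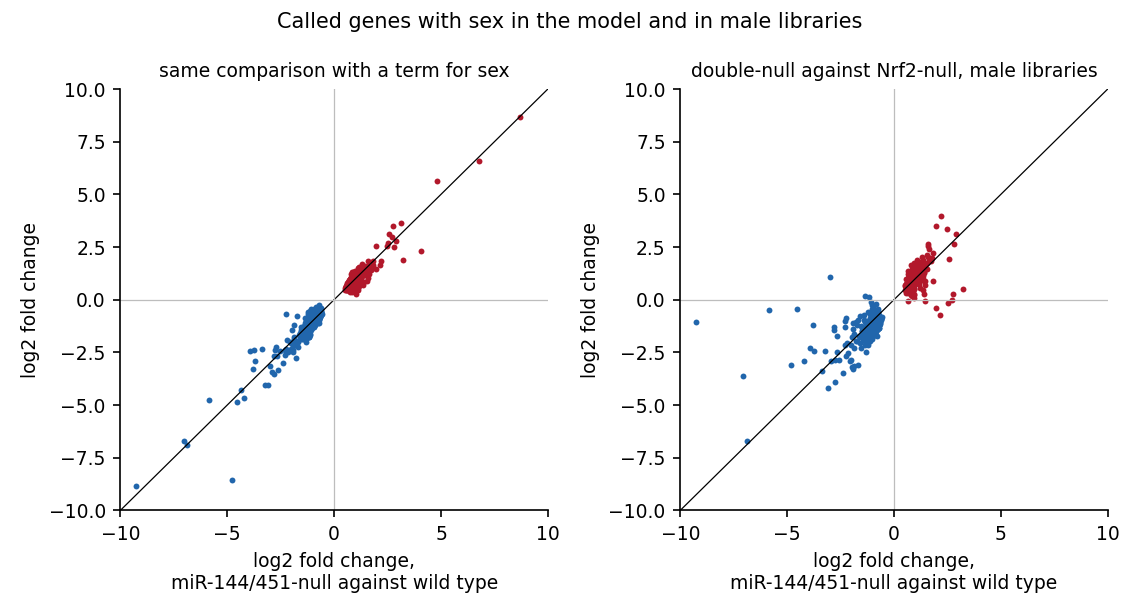
Log2 fold change of the called genes in miR-144/451-null against wild type (horizontal axis) against the same contrast with a term for sex (left, 653 genes) and against double-null over Nrf2-null in male libraries (right, 646 genes); red genes were called higher and blue lower, and the line marks equal values. On the left all points keep their sign, and on the right 638 of 646 do.

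Whether the effect of losing the cluster differed with Nrf2 status was tested by the interaction, which 9 of 14110 genes passed (0.0638%), with 629 at an unadjusted p under 0.05. DESeq2 called 24. Dropping 1 wild type library gave 4 (replicate 1) or 3 (replicate 3), dropping replicate 1 of miR-144/451-null gave 3, and dropping Nrf2-null replicate 1, Nrf2-null replicate 2 or double-null replicate 1 gave 5 each. Of the 9 genes, 3 were among the 653, Naip2, Naip5 and AA465934. Naip5, a sensor of bacterial flagellin, had 83 and 74 counts in wild type and 0 and 0 in miR-144/451-null, at least 28.02-fold lower against the floor of 3 counts per library. Naip2, its neighbour and a sensor of bacterial secretion systems, stood at 8.62 and 8.23 CPM in wild type and 0.219 and 0.469 CPM in miR-144/451-null (-4.54 ± 0.40, adjusted p = 0.00151). The Naip genes are close copies, so their counts are uncertain. Naip6, another copy, stood at 3.95 and 4.48 CPM in wild type and 2.48 and 8.68 CPM in miR-144/451-null and did not pass (0.42 ± 0.68, adjusted p = 0.818).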

How the data were processed

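RNA sequencing measured 10 libraries of 4 genotypes. The deposited count table holds unnormalised counts under 53465 Ensembl identifiers; the authors also supplied 1 FPKM file per library, which per the file headers and values hold each deposited count divided by a gene length and the library total. Per the submitters' processing notes, mm9, HISAT2 2.1.0, TopHat2, Bowtie2 2.2.3 and CASAVA were used, with no role stated. Which counter, which annotation and whether strand was used is not given in the sources used here, so overlapping and antisense genes were not told apart. The counts were fitted in R 4.3.3 with edgeR 4.0.16: filterByExpr (14110 genes), TMM factors, 1 coefficient per genotype over all 10 libraries (6 residual degrees of freedom), robust quasi-likelihood test, two-sided, Benjamini-Hochberg adjusted p under 0.05. Levels are TMM-normalised CPM. Errors after ± are standard errors of log2 fold changes. FPKM served only to compare levels between genes. Symbols came from GENCODE M21 by Ensembl identifier (99.8% matched), a later build than mm9. Seed matches were searched in the longest 3′ UTR of each gene's basic protein-coding transcripts. Library totals ranged from 13087827 to 15131036 counts; floors cover counting error only. The fit was tested on simulated data. Some members of the lists are not reported here by name.

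The members, the 72 gene lists (56 pathway, 16 marker) and the tests were chosen with earlier results of these data known. Named genes were those of the cluster and, among called genes without overlap, of at least 5 CPM and no predicted name, the 15 per direction by fold change, by p and by level, up to 20 per direction called without each of the 4 libraries, and up to 4 per list and per symbol family (shared letters before the first digit, at least 10 tested and 3 called). Genes outside that rule, among them relatives of a named gene, further list members and genes with a seed match, were named after their values were seen. Alternatives were DESeq2 1.42.0, other scaling and filters, the 4 libraries alone, a replicate block, a term for sex, globin removal, no robust shrinkage and each library left out.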

Additional observations from a re-analysis of the deposited data

Results flagged for a closer look

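The genes below passed the interaction test: the effect of losing the cluster differed between Nrf2-null and Nrf2-carrying cells. Values are log2 differences of the 2 effects (without Nrf2 minus with Nrf2) ± SE, with edgeR adjusted p. In 3 of the 9 the miR-144/451-null or wild type libraries stood apart. Naip2 differed by 4.04 ± 0.46, adjusted p = 0.00923, at 0.219 and 0.469 CPM in miR-144/451-null against 8.62 and 8.23 in wild type, 8.01, 11.7 and 10.6 in Nrf2-null and 7.21, 8.06 and 6.12 in double-null. Naip5 differed by a fitted 8.44 ± 1.13, adjusted p = 0.0397, a value that depends on the prior count because both miR-144/451-null libraries had no count, while double-null stood at 2.23, 4.18 and 4.32 CPM. AA465934 differed by -2.53 ± 0.32, adjusted p = 0.0179, and wild type was the low genotype, at 2.73 and 3.18 CPM against 20.5 and 17.7 in miR-144/451-null, 14.9, 21.2 and 14.4 in Nrf2-null and 17.9, 17.2 and 21.3 in double-null.

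In the other 6 genes the Nrf2-null libraries stood apart from the other genotypes. Fgfrl1, a receptor of fibroblast growth factors without a kinase, differed by 4.33 ± 0.28, adjusted p = 4.95e-05, at 4.104, 2.33 and 3.06 CPM in Nrf2-null against 75.9, 80.6 and 84.5 in double-null, 45.5 and 47.2 in wild type and, without the cluster, 64.7 and 51.2. Idua, a lysosomal iduronidase, differed by 2.13 ± 0.31, adjusted p = 0.0397. Gm8730 differed by -4.41 ± 0.27, adjusted p = 4.95e-05, and Gm9625 by -4.61 ± 0.38, adjusted p = 0.000434. Cfap74 differed by -8.07 ± 1.06, adjusted p = 0.0216 and 5830444B04Rik by -7.47 ± 1.09, adjusted p = 0.0405, both under 5 CPM in every library. For both, double-null also stood apart, near 0. Cfap74 was at 0.0743, 0 and 0 CPM in double-null against 0.486 and 0.407 in wild type. 5830444B04Rik was at 0, 0 and 0.0721 CPM against 0.425 and 0.244. The fitted values of both therefore depend on the prior count. With Nrf2 present, none of these 6 passed. The causes were not tested.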

How the results depend on the processing

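No called or named gene changed direction under any alternative, but some list medians did, among them these: without scaling factors that of spindle checkpoint genes went from -0.08 to 0.04 and that of heme and iron genes from -0.10 to 0.03, and with a term for sex that of DNA replication genes from -0.25 to 0.13. Genes called numbered 1254 (603 higher, 651 lower) with no filter beyond 1 count, 998 (525 lower) by DESeq2, which called 639 of the 653 and left the other 14 without an adjusted p, 152 (85 higher, 67 lower) with the 4 libraries alone, 429 (213 higher) with the replicate block, and 1 (1 higher, 0 lower) with a term for sex. DESeq2 size factors, no scaling factors, a mean of at least 5 CPM, globin genes removed and no robust shrinkage kept the count within 1.5 times. Leaving out each of the 10 libraries in turn gave 40 to 691 calls, 23 to 371 higher and 17 to 340 lower. For the interaction the count of 9 became 232 with no filter, 24 by DESeq2, 5 with a mean of at least 5 CPM, 5 with the replicate block, 2 with a term for sex and 3 to 12 without each library. The causes were not tested.

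Replicate numbers are not stated to pair the libraries, so the replicate block is given here only. Deviations of same-numbered libraries from their genotype's mean correlated between -0.111 and 0.287. The highest value was that of replicate 1 of miR-144/451-null and double-null. With 2 libraries a genotype, the wild type and miR-144/451-null pairs must share 1 value, which was -0.017. Of the 209 named genes, 184 stayed called with DESeq2 size factors, 187 without scaling factors, 63 with 4 libraries, 149 with the replicate block, 0 with a term for sex, and 29 to 108 without each of the 4 libraries. The comparison has 2 libraries a side at a depth of 13087827 to 14777399 counts. Which of these limits the precision more was not tested.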

Other observations

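These genes were singled out after their values were seen. Of the 653 called genes 5 had no count in either library of a genotype. Beside Mir144 and Naip5 they included Ccnb1ip1, a ubiquitin ligase known from meiotic crossing over, which had 38 and 76 counts in the miR-144/451-null libraries and 0 in each of the other 8 libraries, the double-null ones included. It was at least 16.96-fold higher than in wild type against a floor of 3 counts per library. The predicted genes Gm48496 and Gm48809 were the others. Gm48496 had 13 and 17 counts in miR-144/451-null, 0 and 0 in wild type, 2, 3 and 5 in Nrf2-null and 11, 9 and 9 in double-null.

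Wild type was the genotype apart in a few genes. Igtp stood at 319.9 and 229.6 CPM in miR-144/451-null, 60.1 and 79.6 in wild type, 249.8, 262 and 313 in Nrf2-null and 143, 284 and 149 in double-null. Irgm2 stood at 288 and 245 CPM in miR-144/451-null, 45.6 and 73.3 in wild type, 239, 242 and 315 in Nrf2-null and 109, 223 and 117 in double-null. For both genes the Nrf2-null libraries, which carry the cluster, were near the level of the miR-144/451-null ones. Myo15 was lowest in wild type too, at 3.89 and 2.36 CPM against 29.3 and 29.6 in miR-144/451-null, 57.7, 53.98 and 75.9 in Nrf2-null and 95.6, 90.96 and 37.3 in double-null. Csf2rb2, by contrast, followed the cluster, at 4.31 and 3.83 CPM in wild type and 2.76, 6.32 and 2.98 in Nrf2-null against 30.7 and 30.3 in miR-144/451-null and 27.9, 43.2 and 33.2 in double-null.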
